A study of Mus musculus with 96 samples.

Results

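Among single mouse embryonic stem (ES) cells, the 12 cells that ranked highest for 3 genes of the primed epiblast, primed-high cells, were set against the 12 that ranked lowest, primed-low cells. The cells come from the J1 line, feeder-free, at passage 12 to 20 and kept with fetal bovine serum and leukaemia inhibitory factor (LIF), and all of them share this treatment and genotype. The series holds 48 single cells, captured on a microfluidic chip and each sequenced in 2 lanes, so its 96 samples are 48 cells. The lanes of a cell were summed, and values are given as CPM, the reads of a gene scaled to 1000000 reads in genes of that cell. Of the 48 cells, 35 had under 20 CPM of Gata6, a transcription factor of primitive endoderm. Among these 35 the highest Gata6 value was 1.36 CPM, and the lowest of the other 13 cells was 82.8 CPM. In the 35 cells, log2(CPM + 1) of Otx2, Dnmt3a and Dnmt3b was brought to mean 0 and SD 1 for each gene, and the mean of the 3 is the score. The compared cells are 24 of the 48 in all (48 of 96 samples), 11 cells with scores between the groups lie outside, and the values that chose the cells were measured in the same cells.

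The cells are not assigned to separate cultures in the labels, so they were treated as 1 culture, which counts as 1 sample. For this reason, and because the cells were selected on measured values, the comparison is a description with no test. A difference below is the mean log2(CPM + 1) of the primed-high cells minus that of the primed-low cells, and SDs and ranges are over these cells. A gene is counted as higher or lower where that difference is at least 1 in size. The share of pairs is the percentage of all pairs of 1 primed-high and 1 primed-low cell in which the primed-high cell had the higher value, with ties counted as 0.5, so 50 means no separation.

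Naive pluripotency is the state of the preimplantation epiblast, held in ES cells by LIF signalling and factors such as Nanog, Esrrb and Tfcp2l1. The primed state is that of the epiblast after implantation, reached under fibroblast growth factor (FGF) and Nodal signals, in which Otx2, a homeodomain factor, redirects Oct4 (Pou5f1) to other enhancers. Dnmt3a and Dnmt3b are the de novo DNA methyltransferases, which methylate the genome during the same passage. ES cells in serum are known to vary from cell to cell between these states.

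The OTX2 homeodomain binds the core TAATCC, and this core was looked for on both strands in promoter windows from RefSeq (build GRCm38.p6), each from 250 bases before to 50 after a gene's start. The 3 windows shown are the one of Otx2 itself that holds the core and those of Tmem87a and Cyb561d2, the 2 leading genes of primed-high cells whose windows hold it. All 3 genes lie on the minus strand and the sequences run 5′ to 3′ in the direction of the gene. The core is in capitals and reads GGATTA where it stands on the opposite strand.
Otx2 (chr14:48665060-48665359): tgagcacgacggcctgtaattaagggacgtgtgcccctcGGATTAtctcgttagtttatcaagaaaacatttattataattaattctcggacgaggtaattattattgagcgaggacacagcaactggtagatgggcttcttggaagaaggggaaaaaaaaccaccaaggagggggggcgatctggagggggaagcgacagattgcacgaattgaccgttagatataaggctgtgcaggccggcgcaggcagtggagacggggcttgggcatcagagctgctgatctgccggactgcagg
Tmem87a (chr2:120404067-120404366): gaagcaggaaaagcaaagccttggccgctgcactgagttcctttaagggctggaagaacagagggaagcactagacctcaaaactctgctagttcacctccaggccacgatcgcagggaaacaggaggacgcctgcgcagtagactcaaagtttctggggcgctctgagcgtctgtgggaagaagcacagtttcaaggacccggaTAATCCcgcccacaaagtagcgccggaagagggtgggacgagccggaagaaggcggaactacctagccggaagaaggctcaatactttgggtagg
Cyb561d2 (chr9:107542144-107542443): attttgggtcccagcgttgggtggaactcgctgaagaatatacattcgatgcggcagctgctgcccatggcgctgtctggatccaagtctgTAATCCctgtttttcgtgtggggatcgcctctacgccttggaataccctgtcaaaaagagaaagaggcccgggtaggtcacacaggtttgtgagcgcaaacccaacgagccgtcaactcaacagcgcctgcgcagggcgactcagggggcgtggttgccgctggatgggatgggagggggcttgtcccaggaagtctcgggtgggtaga
The core begins at -211 in the Otx2 window, at -45 in that of Tmem87a and at -159 in that of Cyb561d2, counted from the gene's start. Otx2 has 4 listed windows and Cyb561d2 has 2, and the others hold no core. Of the 12 leading genes higher in primed-high cells, 11 had a window and 2 held the core, of the 12 leading lower genes 8 had a window and 1 held it, and of the 23 compared primed epiblast genes 15 had one and 0 held it. Of all 27025 genes with a window 8.14% held it, and of all 32851 windows 7.06%. For the lower genes and the primed epiblast list, as for all compared genes, under 80% had a window, so no share is given. A match describes letters and says nothing of binding.

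Otx2, the homeodomain factor, lay at 27.0 CPM in the lowest primed-high cell, with a median of 108 CPM and a highest value of 231 CPM. Primed-low cells had Otx2 from 0 CPM, with a median of 0.939 CPM, up to 377 CPM. The groups overlapped through 1 primed-low cell, number 44, which held more Otx2 than any primed-high cell and had 1.47 CPM of Dnmt3b. Otx2 reached at least 5 reads in 12 of 12 primed-high and 6 of 12 primed-low cells, so it was closer to present or absent than the other score genes.

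Dnmt3a ran from 24.5 through a median of 117 to 586 CPM in primed-high cells. In primed-low cells it ran from 0.652 through 37.8 to 138 CPM. Dnmt3b ran from 160 through 452 to 1666 CPM in primed-high cells, and from 1.47 through 83.9 to 353 CPM in primed-low cells. The ranges of both methyltransferases overlapped, and 5 of 12 primed-high cells for Dnmt3a and 8 of 12 for Dnmt3b stood above every primed-low cell. The 11 cells between had medians of 27.3 CPM for Otx2, 97.1 CPM for Dnmt3a and 176 CPM for Dnmt3b. The 13 cells over the Gata6 limit had 4.14 CPM of Otx2, 2.40 CPM of Dnmt3a and 149 CPM of Dnmt3b.

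**Figure D1:**
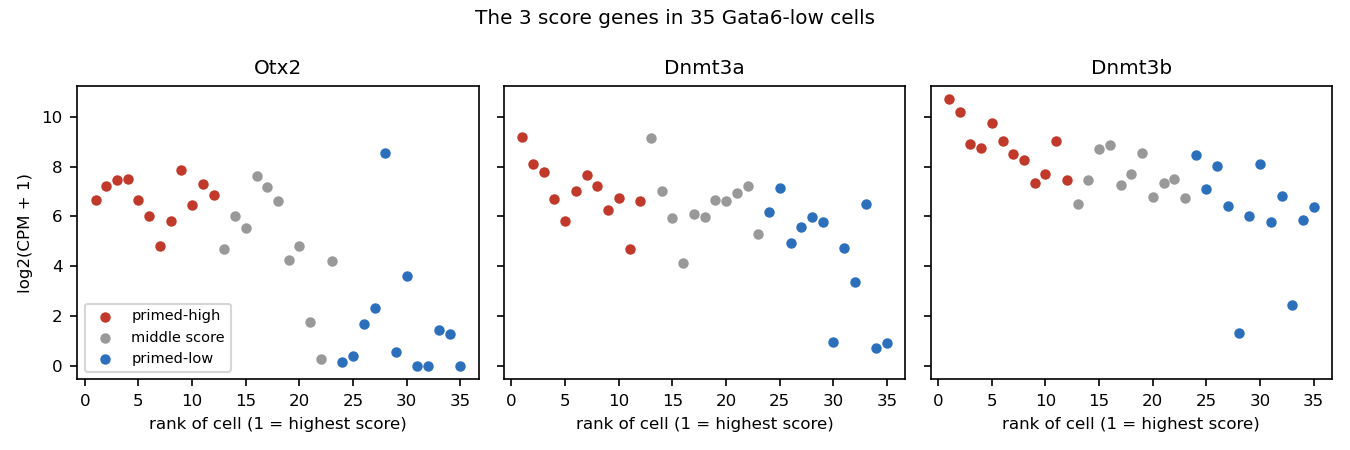
Level of each score gene, as log2(CPM + 1), against the rank of the cell by score (1 = highest) in the 35 cells under the Gata6 limit, 1 point per cell. The points of the 12 primed-high cells are red and those of the 12 primed-low cells are blue, and the blue point high in the Otx2 panel is cell 44, with 377 CPM.

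The score ran from 0.409 to 1.42 in primed-high cells (median 0.597) and from -1.57 to -0.280 in primed-low cells (median -0.783). The last primed-high cell had a score of 0.409 and the next cell outside had 0.399. At the other edge, the last primed-low cell had -0.280 and the next outside had -0.267. Both limits thus divide cells of nearly the same score, and the groups are ends of a range rather than types.

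The 3 score genes were only loosely tied to each other. Over the 35 cells, whose values share a culture condition and a library total per cell, Spearman's rho was 0.486 between Otx2 and Dnmt3b. It was 0.351 between Dnmt3a and Dnmt3b, and 0.264 between Otx2 and Dnmt3a. When the score was made from the other 2 genes and the cells were chosen again, Otx2 had a median of 59.7 CPM in the upper 12 cells and 1.97 CPM in the lower 12, a difference of 2.97 with 78.5% of pairs. Dnmt3a, left out in the same way, had medians of 89.8 CPM in the upper and 58.0 CPM in the lower cells, a difference of 1.48 with 68.8% of pairs. Dnmt3b had 254 CPM in the upper and 98.4 CPM in the lower cells, a difference of 1.22 with 76.4% of pairs.

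The comparison took in 11451 other genes, those that averaged 10 or more reads over the 35 cells. Of these, 1846 (16.1%) were higher and 690 (6.03%) were lower in primed-high cells by at least 1. Counts of list members below are to be read beside these shares. The cells were selected by values from this same contrast, so the counts describe the choice. In 251 of the 1846 higher genes the primed-low mean was under 10 reads, so these genes may have passed the read minimum through other cells. No gene separated the groups without overlap, and the share of pairs reached 95.8% at its highest and 10.4% at its lowest.

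Primed-high cells also held more genes with a read. They had from 8643 to 10291 such genes (median 9420), against 8039 to 9759 (median 8870) in primed-low cells, although their reads were fewer (4408953 to 7882781 reads, against 5314485 to 9767245 reads). With every cell thinned to 4408953 reads the medians were 9156 genes in primed-high and 8493 genes in primed-low cells. The median difference over all compared genes was 0.18. With the number of genes detected regressed out of each gene over the 35 cells, 1119 genes (9.77%) were higher and 940 (8.21%) lower, and the median difference was 0.03. Counts of list members after this regression are to be read beside 9.77% and 8.21%. Scaled by edgeR's TMMwsp factors with the cells kept, 1449 were higher and 963 lower, so that 60.1% of the genes past the limit were higher, against 72.8% as scaled here. With the cells chosen again under that scaling, 1315 were higher and 1158 lower, which is 53.2%. The part of this broad shift in each difference below was not tested.

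Of the primed epiblast list beyond the score genes, 26 genes had a row and 23 were compared. In primed-high cells 9 (39.1%, against 16.1% of all genes) were higher and 0 (against 6.03%) lower. The median difference was 0.46, against 0.18 over all genes. The list was written with earlier results known, and its choice is close to the genes of the score. With genes detected regressed out, 5 were higher and 2 lower, where 9.77% and 8.21% of all genes were. With a pseudocount of 10 CPM, 1 was higher and 0 lower, against 3.67% and 1.34% of all genes. Sox3, Wnt8a and Cer1 had too few reads to be compared.

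Among its transcription factors, Pou3f1 (Oct6), which is induced at the exit from naive pluripotency, had at least 5 reads in 7 of 12 primed-high and 1 of 12 primed-low cells. Its highest value was 34.8 CPM in a primed-high cell and 3.78 CPM in a primed-low cell, with 6 primed-high cells above every primed-low cell, and the difference was 1.93. Sall2, a zinc finger factor, had at least 5 reads in 5 of 12 primed-high and 0 of 12 primed-low cells, with a highest value of 58.7 CPM in primed-high and 0.116 CPM in primed-low cells, and differed by 1.68. Zic2, a zinc finger factor of the primed epiblast, had at least 5 reads in 5 of 12 primed-high and 0 of 12 primed-low cells and differed by 1.11. Pou3f1 had 0 reads in 5 of 12 primed-high cells, and Sall2 and Zic2 each in 6 of 12.

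Tcf15, a basic helix-loop-helix factor that marks early priming, had a median of 13.9 CPM in primed-high cells (0 to 40.2 CPM), against 0.389 CPM in primed-low cells (0 to 26.9 CPM), a difference of 1.41. Lef1, a nuclear partner of beta-catenin in WNT signalling, differed by 1.53, with medians of 1.91 CPM in primed-high and 0 CPM in primed-low cells. A single primed-low cell reached 123 CPM of Lef1, about as much as the highest primed-high cell. Pim2, a serine/threonine kinase, had the largest difference of the list, 1.99, with a median of 21.6 CPM in primed-high cells (0 to 459 CPM) and 0.994 CPM in primed-low cells (0 to 173 CPM).

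The FGF genes of the list were sparse. Fgf5, the classical marker of the postimplantation epiblast, had reads in 3 of 12 primed-high cells only, 601 reads in all, and 0 reads in the 12 primed-low cells. Against a floor of 3 reads over the whole primed-low group, that is at least 237-fold higher in primed-high cells, a bound that covers counting error only and rests on those 3 cells. Fgf15 had medians of 12.1 CPM in primed-high and 0 CPM in primed-low cells but a highest value of 127 CPM in primed-high and 136 CPM in primed-low cells, and differed by 1.52. Dusp6, a phosphatase induced by ERK that dampens it, had medians of 53.2 CPM in primed-high and 17.3 CPM in primed-low cells and differed by 1.39. Fgf5, Pou3f1, Zic2 and Sall2 averaged under 10 reads in primed-low cells.

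**Figure D2:**
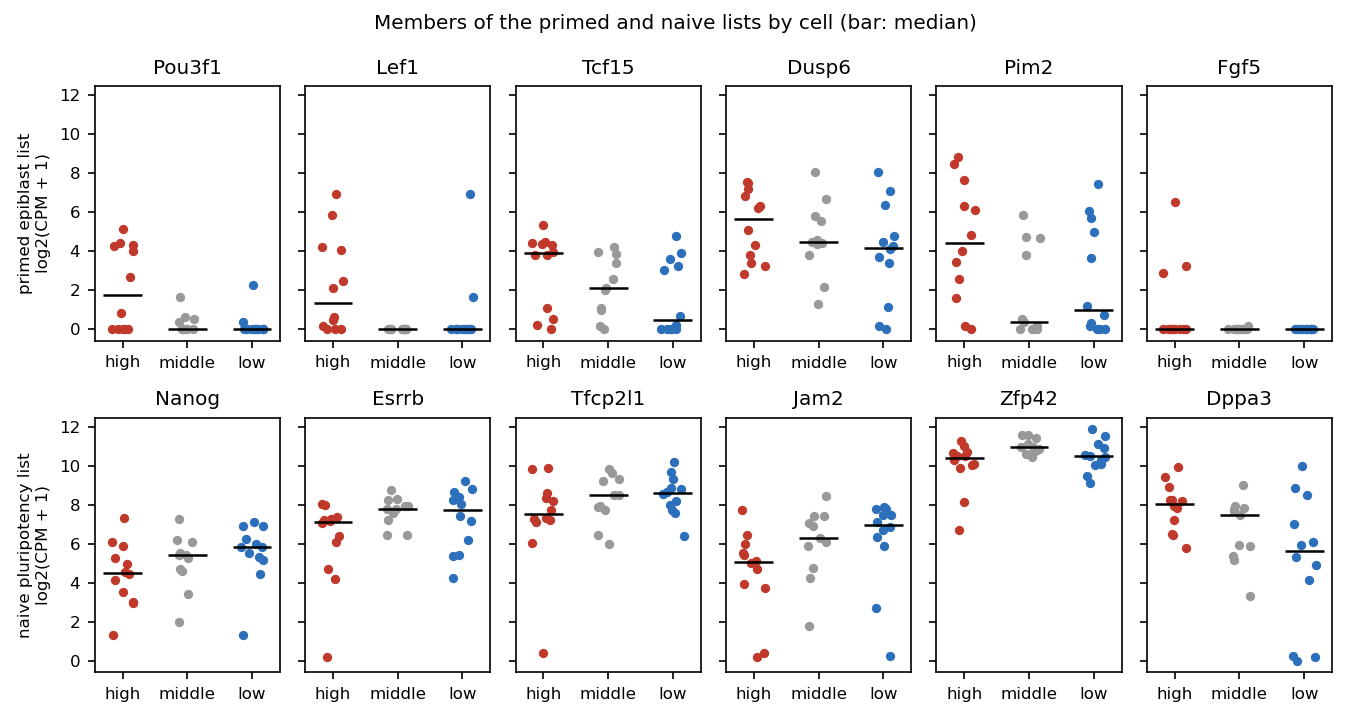
Levels of 6 members of the primed epiblast list (upper row) and 6 of the naive list (lower row) as log2(CPM + 1), 1 point per cell with a bar at the median, for primed-high (12), middle (11) and primed-low (12) cells. Pou3f1, Lef1 and Fgf5 lie at 0 in most primed-low cells and in part of the primed-high cells, while the Zfp42 points of the groups overlap.

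The mean level of the 23 members in a cell was 3.77 ± 0.73 in primed-high cells and 3.11 ± 0.30 in primed-low cells (SD of log2(CPM + 1), n = 12 cells each). The share of pairs was 78.5%, and the groups overlapped, with 2.87 to 5.15 in primed-high and 2.48 to 3.54 in primed-low cells. Cells between the groups had 3.11 ± 0.54 (SD, n = 11 cells), as low as primed-low cells. The higher mean thus belonged to the primed-high end of the score, and to part of its cells. The list's level was also correlated with the number of genes detected in a cell (Spearman's rho 0.600 over 35 cells, against 0.496 with the score, from the same libraries).

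Of the 27 naive pluripotency genes, 24 had at least 5 reads in 6 or more of the 12 primed-high cells, and 24 did in the primed-low cells. Zfp42 (Rex1), Dppa3 (Stella) and Klf4 each had at least 5 reads in 12 of 12 primed-high cells, and Esrrb in 11 of 12. Primed-high and primed-low therefore name the ends of the score and not 2 cell types. All 27 were compared, and in primed-high cells 5 (18.5%) were higher and 9 (33.3%) lower, against 16.1% and 6.03% of all genes. The median difference was -0.31. With genes detected regressed out, 3 were higher and 8 lower.

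Of the lower members, Nanog, Esrrb, Tfcp2l1, Tbx3 and Prdm14 are transcription factors of the naive network. Other factors of that network on the list, among them Zfp42, Klf2, Klf4, Klf5 and Nr5a2, were not past the limit, and Nr0b1 was higher. Nanog, a core factor of that network, had a median of 21.7 CPM in primed-high cells (1.54 to 162 CPM), against 56.2 CPM in primed-low cells (1.47 to 138 CPM), and differed by -1.08. Esrrb, an orphan nuclear receptor, had 137 CPM in primed-high cells (0.154 to 263 CPM), against 214 CPM in primed-low cells (18.3 to 589 CPM), and differed by -1.12. Tfcp2l1, a factor downstream of LIF, had 183 CPM in primed-high cells (0.308 to 952 CPM), against 391 CPM in primed-low cells (82.9 to 1176 CPM), and differed by -1.17. In each of these 3 genes the primed-high median was the lower one and the ranges overlapped widely.

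Tbx3, a T-box factor that upholds naive cells, differed by -1.18, and Prdm14, a repressor of FGF receptor and methyltransferase genes, by -1.16. Prdm14 was not lower when the score was made without Dnmt3a, with a difference of 0.0004. Jam2, a junctional adhesion molecule, had the lowest share of pairs of the list, with medians of 33.0 CPM in primed-high and 126 CPM in primed-low cells, a difference of -1.67 and 21.5% of pairs. Dppa2, Fgfr2 and Manba differed by -1.16, -1.29 and -1.88, and the difference of Manba, a lysosomal mannosidase, was 0.53 without Dnmt3a in the score.

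The 9 lower naive genes rested partly on single cells. Cell 11, which had the highest score, held the lowest mean level of the naive list, 3.06, where the median of the primed-high cells was 5.64. Without cell 11, 4 members were lower, and Nanog differed by -0.80, Esrrb by -0.58 and Tfcp2l1 by -0.54. Without cell 7, another primed-high cell, 5 were lower, and Dppa2 differed by -0.76 and Tbx3 by -0.88. Without primed-low cell 14 Prdm14 differed by -0.86, and without primed-low cell 31 Fgfr2 differed by -0.84. With 17 cells against 17, 3 members were higher and 0 lower. The mean level of the whole list was 5.39 ± 0.90 in primed-high and 5.54 ± 0.46 in primed-low cells (SD, n = 12 cells each), with 52.1% of pairs. That difference of -0.15 became 0.06 without cell 11, 0.04 with 17 cells against 17 and 0.02 without Dnmt3a in the score, so its sign was not fixed.

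Dppa3 (Stella), which protects the maternal genome from demethylation in the zygote, was among the 5 naive genes higher in primed-high cells. It had a median of 267 CPM in primed-high cells (53.2 to 969 CPM), against 50.3 CPM in primed-low cells (0 to 1026 CPM), and differed by 2.78. Under 5 reads of Dppa3 were found in 3 of 12 primed-low cells and 0 of 12 primed-high cells. Mael, a germline gene of transposon silencing, had medians of 12.7 CPM in primed-high and 0 CPM in primed-low cells, with 8 primed-high cells above every primed-low cell, and differed by 2.85. Nr0b1 (Dax1) differed by 1.19, Spp1 by 1.17 and Tcl1 by 1.05. Spp1 and Tcl1 did not keep their sign under every alternative: without Dnmt3b in the score Spp1 differed by -0.0048, and without Otx2 Tcl1 differed by -0.81. Without cell 31 or cell 44, both primed-low, 3 of the list were higher in place of 5. Without cell 44 Spp1 differed by 0.71, and without primed-low cell 15 Tcl1 differed by 0.59.

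Of the 19 core pluripotency genes compared, 1 (5.26%, against 16.1% of all genes) was higher and 0 (against 6.03%) lower. The median difference was 0.00. Pou5f1 (Oct4) had 43.2 CPM in primed-high cells (3.13 to 135 CPM), against 92.7 CPM in primed-low cells (7.60 to 160 CPM), a difference of -0.47. Sox2 had 86.1 CPM in primed-high and 81.0 CPM in primed-low cells, a difference of -0.13. The higher gene was Zfp143, a zinc finger factor of promoters, with medians of 22.0 CPM in primed-high and 0.251 CPM in primed-low cells and a difference of 2.19.

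The other genes of DNA methylation were not higher along with Dnmt3a and Dnmt3b. Of 14 compared, 0 were higher and 4 (28.6%) lower, against 16.1% and 6.03% of all genes. The median difference was 0.10, and 0 were higher and 2 lower with genes detected regressed out. Dnmt3l, the catalytically inactive partner of the de novo enzymes, had 173 CPM in primed-high cells (53.2 to 696 CPM), against 188 CPM in primed-low cells (8.92 to 465 CPM), a difference of 0.29. The maintenance enzyme Dnmt1 had 152 CPM in primed-high and 111 CPM in primed-low cells, a difference of 0.41. Tet1, a dioxygenase that oxidises methylcytosine, had 915 CPM in primed-high and 903 CPM in primed-low cells, a difference of 0.18.

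Tet2, its relative, which is known to fall on leaving the naive state, had 386 CPM in primed-high cells (0.771 to 686 CPM), against 639 CPM in primed-low cells (38.0 to 1499 CPM). It differed by -1.03, and 4 primed-low cells stood above every primed-high cell. Without primed-high cell 11 it differed by -0.40, so that its place among the lower genes rested on that cell. Mbd1 and Mbd2, which bind methylated DNA, differed by -1.45 and -1.02, and the RNA methyltransferase Trdmt1 by -1.23. Mbd2 differed by -0.67 without primed-low cell 35. All 3 had at least 5 reads in 8 or fewer of 12 cells of each group.

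Of 20 FGF and ERK genes compared, 5 (25.0%, against 16.1% of all genes) were higher and 1 (5%, against 6.03%) lower (median 0.28). With genes detected regressed out these counts were 4 and 2. Beside Fgf5, Fgf15 and Dusp6 the higher ones were Mapk3, which encodes the kinase ERK1 (2.15), and Egr1, an immediate early target of ERK (1.64), and the lower one was Fgfr2 (-1.29). Without primed-high cell 30 Fgf5 differed by 0.56, without primed-high cell 19 Egr1 by 1.07, and without primed-low cell 31 Fgfr2 by -0.84. The ligand Fgf4 had 113 CPM in primed-high and 124 CPM in primed-low cells, a difference of -0.28, and the feedback inhibitor Spry2 differed by 0.07.

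Of 18 Nodal and TGFB genes compared, 4 (22.2%, against 16.1% of all genes) were higher and 1 (5.56%, against 6.03%) lower (median 0.39). With genes detected regressed out these counts were 3 and 1. The Nodal antagonists Lefty1 and Lefty2 differed by 1.77 and 1.19, and without Otx2 in the score Lefty2 differed by -0.24. Without primed-high cell 7 it differed by 0.79. Skil, a repressor of SMAD proteins, had 758 CPM in primed-high cells (178 to 1493 CPM), against 342 CPM in primed-low cells (19.7 to 974 CPM), and differed by 1.33, and its relative Ski differed by 1.36. Pcsk6, a convertase that can process the Nodal precursor, differed by -1.14 (-0.68 without primed-low cell 48), while Nodal itself (0.42) and its co-receptor Tdgf1 (0.35) were within 1.

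Of 11 WNT genes, 2 (18.2%, against 16.1% of all genes) were higher and 1 (9.09%, against 6.03%) lower (median 0.06, and -0.15 with genes detected regressed out). They were Lef1, the receptor-removing ligase Znrf3 (2.13) and, lower, Tcf7l2 (-1.73). Of 8 BMP and Id genes, 3 (37.5%, against 16.1% of all genes) were higher and 0 (against 6.03%) lower (median 0.80). The 3 were the receptor Bmpr2 (1.59), Id3 (1.21) and Id1 (1.04). Id1 and Id3 did not keep their sign: Id1 differed by -0.14 with 17 cells against 17, and Id3 by -1.08 where the cells were chosen again under TMMwsp scaling. With genes detected regressed out, 1 of the 8 was higher and 0 lower and the median was 0.04, and without primed-high cell 30 Id1 differed by 0.69 and Id3 by 0.74. The level of the BMP and Id list correlated with genes detected (Spearman's rho 0.618 over 35 cells). Of 13 LIF and STAT3 genes, the phosphatase gene Ptpn11 (2.36) was higher and Tfcp2l1 lower (median -0.05). Each is 7.69% of that list, where 16.1% of all genes were higher and 6.03% lower. With genes detected regressed out, 1 of the 13 was higher and 2 lower.

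**Figure D3:**
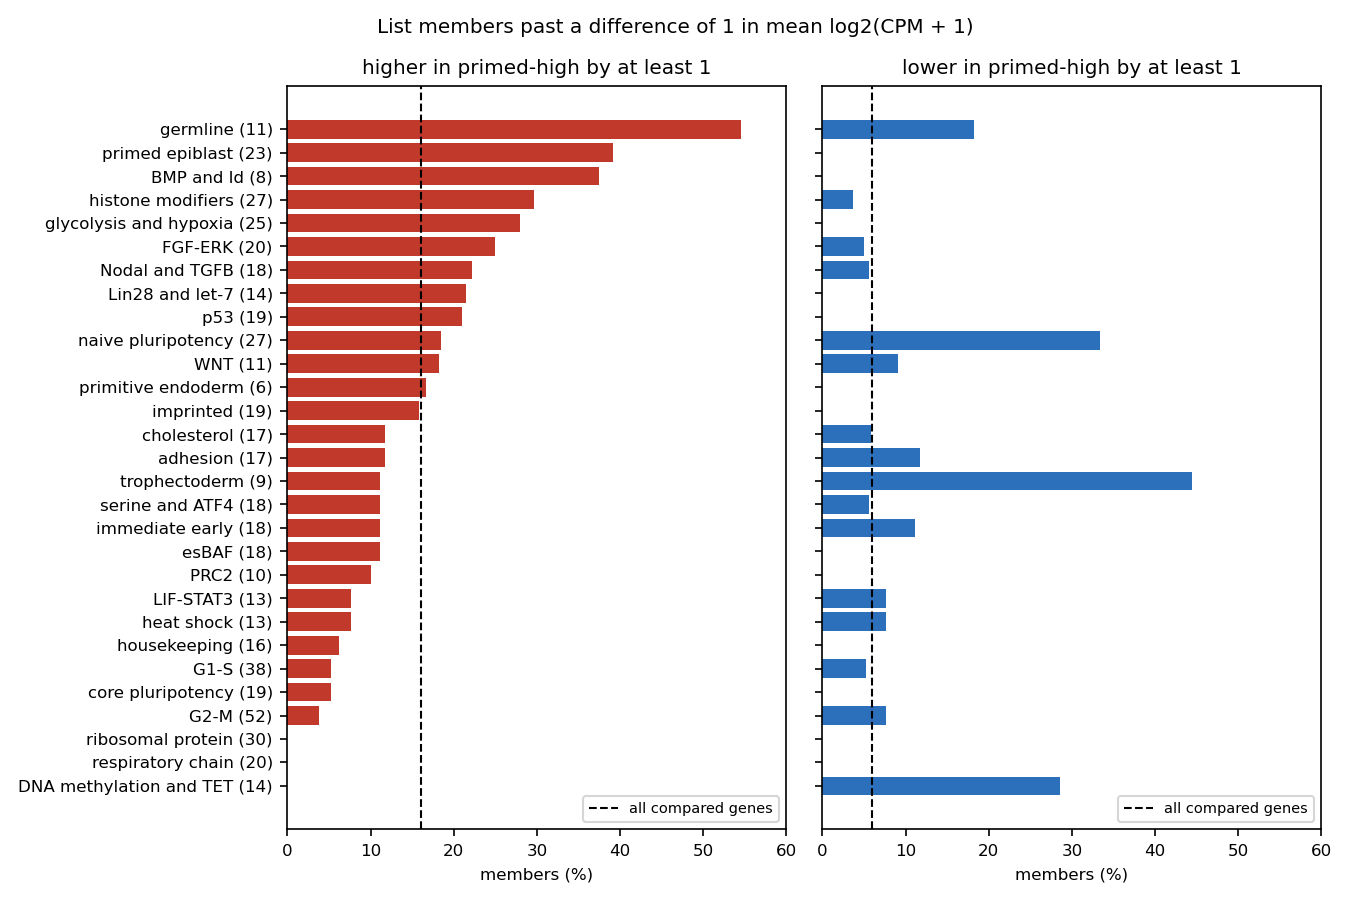
Percentage of compared members of each list that were higher (left) or lower (right) in primed-high cells by at least 1 in mean log2(CPM + 1), with the number compared in parentheses and a dashed line at the share of all 11451 genes (16.1% and 6.03%). Ribosomal protein and respiratory chain genes have no member past the limit on either side.

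Of 27 histone modifier genes compared, 8 (29.6%, against 16.1% of all genes) were higher and 1 (3.70%, against 6.03%) lower (median 0.34). With genes detected regressed out, 7 of the 27 were higher and 1 lower, against 9.77% and 8.21% of all genes. Their mean level per cell was 5.41 ± 0.26 in primed-high cells and 4.84 ± 0.38 in primed-low cells (SD of log2(CPM + 1), n = 12 cells each), with 91.0% of pairs. Cells between the groups had 5.49 ± 0.32 (SD, n = 11 cells), as high as primed-high cells, so the low level belonged to the primed-low end of the score. With the log2 ratio of mean CPM in place of the difference of mean log2 values, the list differed by 0.15. By that measure 4 of the 27 were higher and 3 lower, where 17.4% and 14.9% of all genes were, so neither count exceeded the share of all genes.

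Most of the 8 were lysine demethylases. Kdm2a had a median of 56.4 CPM in primed-high cells (7.06 to 219 CPM), against 15.5 CPM in primed-low cells (0 to 115 CPM), and differed by 2.32. Kdm3b (1.83), Kdm6a (1.78), which removes methyl groups from lysine 27 of histone H3 and so opposes PRC2, Kdm2b (1.63) and Kdm4c (1.17) were also higher. With 8 cells against 8, Kdm4c differed by -0.08.

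Hdac3, the deacetylase of the NCoR complex, had 36.3 CPM in primed-high cells (1.65 to 192 CPM), against 2.58 CPM in primed-low cells (0 to 125 CPM), and differed by 2.05. The acetyltransferase Ep300 differed by 1.47. Of the methyltransferases of lysine 9 of histone H3, Suv39h2 differed by 1.19 and Suv39h1 by -1.31, while Ehmt1, Ehmt2 and Setdb1 were within 1. Without primed-high cell 28 Suv39h2 differed by 0.98, and without primed-low cell 31 Suv39h1 differed by -0.999. Of 10 PRC2 genes, Ezh1 alone (10%, against 16.1% of all genes) was higher (1.57) and 0 (against 6.03%) were lower. Ezh2, the main catalytic subunit in ES cells, differed by 0.52. Of 18 esBAF genes, Bcl7c (1.45) and Arid1b (1.16) were higher (11.1%, against 16.1% of all genes) and 0 (against 6.03%) were lower. Arid1b differed by -0.38 as a log2 ratio of mean CPM.

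Germline genes that ES cells transcribe at a low level included 6 higher (54.5%) and 2 lower (18.2%) of 11 compared (median 1.26). Of all genes 16.1% were higher and 6.03% lower. With genes detected regressed out, 5 of the 11 germline genes were higher and 2 lower. As log2 ratios of mean CPM the mean over the list was -0.03. Beside Mael they were the meiotic chromosome axis genes Sycp3 (76.4% of pairs) and Hormad1 (2.04), Sycp1 of the synaptonemal complex (1.42), the ADP/ATP carrier Slc25a31 (1.69) and Dazl (1.26). Sycp3 had at least 5 reads in 10 of 12 primed-high and 5 of 12 primed-low cells, and Hormad1 in 10 of 12 primed-high and 4 of 12 primed-low cells. The medians of Dazl were 0.0681 CPM in primed-high and 0.128 CPM in primed-low cells, and without primed-high cell 43 it differed by 0.78. Ddx4 (-1.85) and Prdm1 (-1.78), which specifies primordial germ cells, were lower.

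Of 19 imprinted genes compared, 3 were higher and 0 lower (median 0.41), and the 15.8% higher is close to the 16.1% of all genes. Mest, expressed from the paternal allele, had a median of 83.8 CPM in primed-high cells (0 to 281 CPM), against 0.857 CPM in primed-low cells (0 to 334 CPM), and differed by 2.99. Its annotation overlaps that of Copg2, which differed by 1.37, and how reads in the overlap were counted is not given in the sources used here. Kcnq1ot1 differed by 1.64 and overlaps Kcnq1. Grb10 differed by 1.19, and by -0.33 as a log2 ratio of mean CPM.

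The genes that best parted the groups were not members of any pluripotency list. They are the 12 in each direction with the largest share of pairs, among genes past the limit with a mean of at least 20 CPM in the higher group. All were picked from this contrast, so their values describe the choice. Slc5a3, the sodium and myo-inositol cotransporter, led with 95.8% of pairs. It had a median of 33.0 CPM in primed-high cells (0.190 to 154 CPM), against 0 CPM in primed-low cells (0 to 1.23 CPM). In 9 of 12 primed-high cells it stood above every primed-low cell, and the difference was 3.94. With at most 1.23 CPM in any primed-low cell, it may have passed the read minimum through other cells. It lies within the annotation of Mrps6, which differed by -1.17.

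Snap29, a SNARE protein of membrane fusion, had a median of 40.6 CPM in primed-high cells (0.645 to 94.8 CPM), against 0.567 CPM in primed-low cells (0 to 9.74 CPM), a difference of 3.85. In 10 primed-high cells it was above every primed-low cell, and the middle cells had a median of 23.2 CPM. Slc7a7, a subunit of a cationic amino acid transporter, had the largest difference of the 12, 4.23, with 188 CPM in primed-high cells (9.53 to 284 CPM), against 2.00 CPM in primed-low cells (0.102 to 215 CPM). Upp1, uridine phosphorylase, was the most abundant, with 833 CPM in primed-high cells (159 to 1440 CPM), against 195 CPM in primed-low cells (1.01 to 376 CPM), a difference of 2.90.

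Rabgap1, a GTPase activator of Rab proteins, had 201 CPM in primed-high cells (67.4 to 405 CPM), against 64.5 CPM in primed-low cells (0.694 to 132 CPM), a difference of 2.48. Osgep, the catalytic subunit of the KEOPS complex that modifies transfer RNA, had 76.8 CPM in primed-high cells (16.5 to 150 CPM), against 15.1 CPM in primed-low cells (0 to 74.4 CPM), a difference of 2.50. Tprkb, another KEOPS subunit, was among the 5 genes most like the score over the 35 cells and had 85.8 CPM in primed-high cells (0.157 to 180 CPM), against 8.14 CPM in primed-low cells (0 to 97.5 CPM). Both subunits were at 0 in 2 of 12 primed-low cells and in no primed-high cell.

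The other higher genes were the endoplasmic reticulum gene Sdf2l1 (2.77), the ubiquitin-conjugating enzyme gene Ube2e3 (3.59), the zinc finger gene Zbtb8a (3.44), Dpcd (2.44), Tmem87a (2.16) and Cyb561d2 (3.35). Tmem87a overlaps Ganc (0.86) and Cyb561d2 overlaps Nprl2 (1.83), and reads of such pairs may have been split between them. All 12 kept a difference of at least 1.61 with genes detected regressed out. Over the alternatives other than leaving out 1 cell, the smallest differences of the 12 were 0.91 for Dpcd and 1.05 for Tmem87a.

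**Figure D4:**
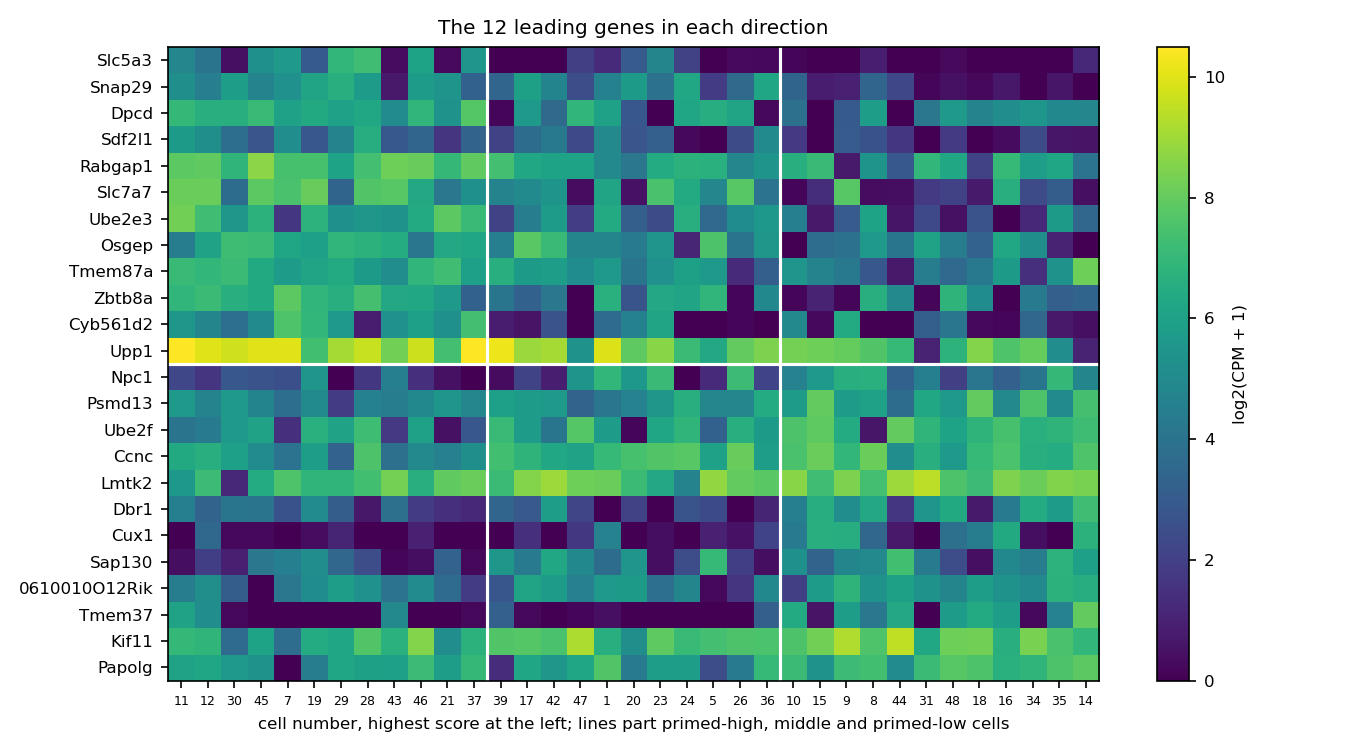
Level of the 12 leading genes in each direction, as log2(CPM + 1) in colour, in the 35 cells under the Gata6 limit ordered by score from the left. White lines part the 12 primed-high, 11 middle and 12 primed-low cells, and the rows above the horizontal line are the genes higher in primed-high cells.

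Among the lower genes, Npc1, a cholesterol transporter of the lysosome, parted the groups best. It had a median of 3.00 CPM in primed-high cells (0 to 42.8 CPM), against 23.1 CPM in primed-low cells (3.01 to 126 CPM), with 11.8% of pairs and a difference of -2.58. Cux1, a homeodomain repressor, had 0.0802 CPM in primed-high cells (0 to 10.8 CPM), against 16.3 CPM in primed-low cells (0 to 106 CPM), a difference of -3.09. Tmem37 was at 0 in 7 of 12 primed-high cells and 1 of 12 primed-low cells and differed by -3.13, the largest of the 12. Its middle cells also had a median of 0 CPM, so the level belonged to the primed-low end.

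Lmtk2, a membrane kinase, had 131 CPM in primed-high cells (at most 315 CPM), against 338 CPM in primed-low cells (at most 691 CPM), a difference of -1.52, with 7 primed-low cells above every primed-high cell. Psmd13, a subunit of the proteasome cap, had 26.6 CPM in primed-high cells (2.49 to 50.4 CPM), against 58.0 CPM in primed-low cells (12.1 to 252 CPM), a difference of -1.54. Kif11, the mitotic spindle kinesin, had 94.9 CPM in primed-high cells (11.9 to 376 CPM), against 244 CPM in primed-low cells (75.1 to 718 CPM), a difference of -1.62. The others were the cyclin gene Ccnc (-1.66), the NEDD8-conjugating enzyme gene Ube2f (-2.17), the lariat debranching enzyme gene Dbr1 (-2.07), Sap130 of the Sin3 complex (-2.31), the poly(A) polymerase gene Papolg (-1.48) and 0610010O12Rik (-1.48). Papolg differed by -0.98 without primed-high cell 7. Over the alternatives other than leaving out 1 cell, only Npc1, Psmd13, Cux1 and Tmem37 stayed past the limit. The smallest differences of the others were 0610010O12Rik -0.40, Ccnc -0.47, Kif11 -0.64, Lmtk2 -0.76, Sap130 -0.90, Ube2f -0.92, Papolg -0.97 and Dbr1 -0.98.

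Over the 35 cells, which share a culture condition and whose CPM share a total per cell, the 5 genes most like the score were Snap29 (Spearman's rho 0.70), Upp1 (0.68), Rabgap1 (0.65), Tprkb and Tmem87a (0.62 each). The 5 most unlike it were Poldip2, Cd9, Grtp1, Actb (-0.53 each) and Lmtk2 (-0.52). Actb, cytoplasmic actin, was abundant and lower in primed-high cells, with 6765 CPM (5269 to 8942 CPM), against 9345 CPM in primed-low cells (6909 to 10890 CPM), a difference of -0.39. Cd9, a tetraspanin of the cell surface, had 533 CPM in primed-high cells (191 to 801 CPM), against 822 CPM in primed-low cells (437 to 1527 CPM), a difference of -0.80. These ranges overlapped too.

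**Figure D5:**
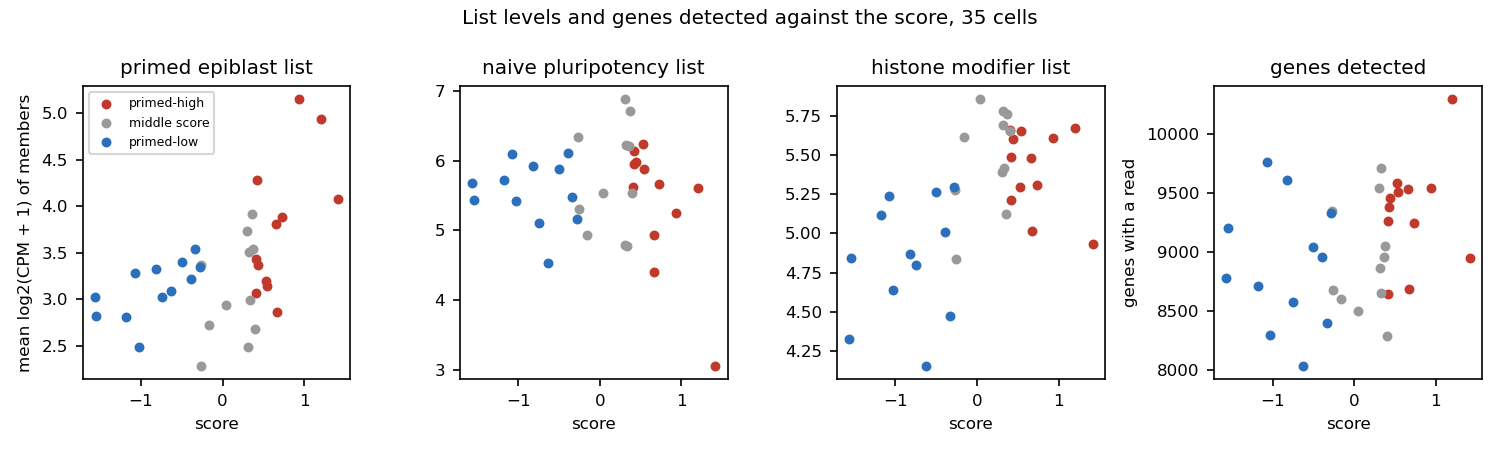
Mean log2(CPM + 1) of the members of 3 lists, and the number of genes with a read, against the score in the 35 cells, 1 point per cell. The histone modifier levels of primed-low cells (4.84 on average) lie mostly under those of the other cells, the naive list has 1 low cell at the highest score, and genes detected are higher in primed-high cells (median 9420) than in primed-low cells (median 8870).

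Markers of other lineages were read in the same cells. In the 24 cells, 0 reads fell on the 8 rows that mark a 2-cell-like state, nor on Cdx2 of trophectoderm, T and Gsc of mesendoderm, or Foxa2. The summed CPM of 12 trophectoderm genes was 17.0 to 250 in primed-high cells, against 0.782 to 2041 in primed-low cells, and the primed-low cells 14, 35 and 10 stood above every primed-high cell. Of 9 compared trophectoderm genes, 1 (11.1%, against 16.1% of all genes) was higher and 4 (44.4%, against 6.03%) lower. The lower ones were the keratin genes Krt8 (-1.14) and Krt7 (-1.13), Gata3 (-1.29) and Tead4 (-1.03). Without primed-low cell 14, Krt8 differed by -0.53 and Krt7 by -0.56, without primed-low cell 35 Tead4 differed by -0.56, and without primed-low cell 10 Gata3 by -0.84. The higher one was Tfap2c (1.01), which differed by -0.41 with the cells chosen again under TMMwsp scaling, by -0.20 without Otx2 and by -0.16 without Dnmt3a in the score. The summed CPM of neuroectoderm markers had a median of 116 in primed-high cells (0.470 to 467), against 30.6 in primed-low cells (0.163 to 358), with 159 in the middle cells. Of the 3 compared, Tubb3, a neuronal tubulin, differed by 2.06 and Sox11, a neural transcription factor, by 1.13. Nes, the other, was lower in primed-high cells but within 1. With genes detected regressed out, 0 of the 3 were past the limit. Sox11 differed by -0.27 as a log2 ratio of mean CPM and by -0.23 without Dnmt3b in the score, and Hes5 and Neurog2 had 0 reads in the 24 cells. The summed CPM of 17 primitive endoderm genes was 156 to 553 in primed-high and 41.9 to 2033 in primed-low cells, against 15014 to 32926 in the 13 cells over the Gata6 limit. Summed fibroblast markers reached 60.3 CPM in primed-high and 199 CPM in primed-low cells, and 5 of their 8 rows had 0 reads in the 24 cells. The summed CPM of mesendoderm markers ran from 0 to 61.7 in primed-high cells and from 0 to 35.9 in primed-low cells, and of the 2 compared 0 were past the limit. Eomes, a T-box factor and 1 of these, had at least 5 reads in 5 of 12 primed-high cells and 1 of 12 primed-low cells and differed by 0.79. The part of these markers in the differences above was not tested.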

How the data were processed

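The counts are whole-number reads per gene, deposited by the authors as 1 table of 23284 gene rows for 96 samples without normalization. Tools named in the submitters' processing notes are featureCounts, Subread 1.4.5-p1 and STAR 2.3.1z12, without role or order, and the build there is mm9. The handling of strand and of reads that fit several genes is not given in the sources used here, so overlapping and antisense genes are uncertain. There were 0 unused sample columns.

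Lanes were summed per cell, giving 4408953 to 9767245 reads over the 48 cells, and turned into CPM with a pseudocount of 1 for log2 values (Python 3.11.15, pandas 2.3.3, scipy 1.17.1). Without molecular identifiers reads are not independent molecules, so floors cover counting error only. No doublet caller was run, no cell was filtered beyond the Gata6 limit, and the read minimum was a mean of 10 over the 35 cells under that limit.

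Members and all 33 lists (604 genes, 595 with a row, 519 compared) were chosen with earlier results of these data known. Genes named are list members, the 12 per direction with the largest share of pairs among genes past a difference of 1 with a mean of at least 20 CPM in the higher group, and the 5 most and 5 least correlated with the score among genes of at least 20 CPM. The computation of differences was tested on simulated counts, only for genes of many reads and for changes larger than the limit. That test does not cover genes of few reads. Alternatives were edgeR 4.0.16 TMMwsp scaling (R 4.3.3), other read minimums, pseudocount, score genes, group sizes, lanes, thinning, regression on genes detected, medians, mean CPM, and leaving out each cell.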

Additional observations from a re-analysis of the deposited data

How the results depend on the processing

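No test was made, so alternatives are compared by counts and differences. Against 1846 genes higher in primed-high cells, 17 cells against 17 gave 1201, regression on genes detected 1119 and a pseudocount of 10 CPM 420. Against 690 lower, 8 against 8 cells gave 1066, TMMwsp with cells chosen again 1158, a pseudocount of 10 CPM 153 and the log2 ratio of mean CPM 1703. Leaving out each cell in turn gave 1751 to 2069 higher and 656 to 810 lower genes, with 7 to 10 higher members of the primed epiblast list. With a pseudocount of 10 CPM, 1 member of that list was higher and 0 lower, where 3.67% and 1.34% of all genes were. As log2 ratios of mean CPM, 6 of the list were higher and 2 lower, against 17.4% and 14.9% of all genes. Of 1188 values over 29 lists, 1184 moved by less than 1 SD between cells and 4 moved further, and 76 values of 21 lists had the opposite sign. Of 2269 values of 134 named genes, 31 turned sign and 503 kept it but were under 1, and of 3216 with 1 cell left out 0 turned and 307 were under 1. In 56 of the 134 genes at least 1 such cell brought the difference under 1. As ratios of mean CPM the values that turned were Arid1b -0.38, Dazl -0.29, Grb10 -0.33, Id1 -0.46, Klf6 -0.16 and Sox11 -0.27. As differences of medians they were Dazl -0.0811, Pfkp -0.0063 and Tcl1 -0.24. With cells chosen again under TMMwsp they were Dtl -0.30, Id3 -1.08, Itga6 -0.0836, Pycr1 -0.14 and Tfap2c -0.41. Without Otx2 in the score they were Itga6 -0.70, Lefty2 -0.24, Tcl1 -0.81 and Tfap2c -0.20, without Dnmt3a Manba 0.53, Mdm2 -0.26, Prdm14 0.0004, Pycr1 -0.38 and Tfap2c -0.16, and without Dnmt3b Hmga2 -0.11, Sox11 -0.23, Spp1 -0.0048 and Zfp36 0.24. With 17 against 17 cells Cdc6 was 0.0681 and Id1 -0.14, and with 8 against 8 Kdm4c was -0.0758 and Tcl1 -0.43. The cause was not tested. No paired analysis was possible because the labels give 1 group. Depth limits genes of few reads, whose presence in 1 cell can set a difference.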

Other observations

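Of 25 genes of glucose use and hypoxia compared, 7 (28%, against 16.1% of all genes) were higher in primed-high cells and 0 (against 6.03%) lower. The median difference was 0.33, and 5 were higher and 1 lower with genes detected regressed out. The lactate transporter gene Slc16a3 differed by 2.01, with medians of 22.3 CPM in primed-high and 2.10 CPM in primed-low cells, and its annotation overlaps Csnk1d (1.42). Pdk1, a kinase that restrains pyruvate dehydrogenase, ran from 35.0 to 405 CPM in primed-high and from 6.73 to 207 CPM in primed-low cells and differed by 1.09. The glucose transporter gene Slc2a1 had 388 CPM in primed-high and 191 CPM in primed-low cells and differed by 1.11. Aldoc (1.45), Ldhb (1.30) and Bnip3 (1.15) were also higher. Pfkp (1.56) was higher too but had about equal medians of 220 CPM in primed-high and 221 CPM in primed-low cells. With 1 primed-low cell left out, Pdk1 differed by 0.80 (cell 34), Slc2a1 by 0.81 (cell 48), Ldhb by 0.72 (cell 14) and Bnip3 by 0.67 (cell 8). As log2 ratios of mean CPM, 2 members were higher and 4 lower, where 17.4% and 14.9% of all genes were.

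Of 19 p53 genes compared, 4 (21.1%, against 16.1% of all genes) were higher and 0 lower (median 0.34), and 3 and 0 with genes detected regressed out. Cdkn1a, the p21 inhibitor of cyclin-dependent kinases, had 60.3 CPM in primed-high cells (4.14 to 240 CPM), against 9.45 CPM in primed-low cells (0.116 to 156 CPM), and differed by 2.45. Ccng1 (1.57), Mdm2 (1.30) and Mdm4 (1.10) were the others. Without primed-low cell 34 or 9, 2 members were higher.

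Of 38 G1-S genes, 2 were higher (5.26%, against 16.1% of all genes) and 2 lower (5.26%, against 6.03%). Of 52 G2-M genes, 2 were higher (3.85%) and 4 lower (7.69%). The mean G2-M level per cell was 7.07 ± 0.35 in primed-high and 7.15 ± 0.53 in primed-low cells (SD, n = 12 cells each). Of 30 ribosomal protein genes and 20 respiratory chain genes, 0 were past the limit in either direction. Of 14 genes around Lin28 and let-7, 3 (21.4%, against 16.1% of all genes) were higher and 0 (against 6.03%) lower. The 3 were Dgcr8 (1.79), Igf2bp2 (1.22) and Hmga2 (1.22). After regression on genes detected 1 was higher and 1 lower, and the level of the list correlated with genes detected (Spearman's rho 0.702 over 35 cells). Of 17 cholesterol genes, Cyp51 (2.61) and Dhcr7 (1.34) were higher (11.8%) and Fdft1 (-1.18) lower (5.88%). Of 18 serine and ATF4 genes, Psat1 (2.24) and Pycr1 (1.34) were higher (11.1%) and Atf4 itself (-1.04) lower (5.56%). In both lists these shares lay under the 16.1% and 6.03% of all genes. Without primed-high cell 37 Fdft1 differed by -0.996, without primed-high cell 29 Pycr1 by 0.96, and without primed-high cell 46 Atf4 by -0.59.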
